A study of Mus musculus with 2 samples.

Results

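T-cell receptor genes are built from separate V (variable), D (diversity) and J (joining) segments, which lie in arrays along the chromosome upstream of constant (C) genes. Segments of all 4 receptor loci, alpha, beta, delta and gamma, were taken from the gene tables of newborn mouse thymus by their GENCODE names, with the constant genes left out. This gave 229 of the 43346 mouse genes in the tables: 103 alpha V, 34 beta V, 5 delta V and 7 gamma V segments, 59 alpha J, 14 beta J, 2 delta J and 1 gamma J segment, and 2 beta D and 2 delta D segments. The annotation used for names holds 260 such segments, and the other 31 were not analysed here. Some alpha V segments carry a double name with DV because they can also join to delta segments, and they were counted as alpha.

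The study comprised 2 libraries of total RNA longer than 200 nt from whole thymus of B6NCrl mice at postnatal day 0 (P0), with no treatment, no genetic change and no second condition. Replicate 1 was pup 6 and replicate 2 was pup 7 of a C57/Bl6 female from Charles River, and the labels list a single donor for both. Each library was made from 13 pg of RNA, which the labels call 1 cell-equivalent, and the assay title is single cell RNA-seq although the material was tissue RNA. The labels name no treatment of the pups, and their sex was not collected. The pair therefore gives levels and the spread between 2 libraries, in which pup, RNA handling and amplification cannot be told apart, and no test between conditions.

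During T-cell development the Rag recombinase joins 1 V segment to a J segment, with a D segment between them in the beta and delta loci, and the joined exon is spliced to a constant gene. Beta and gamma-delta genes are assembled in early thymocytes. Alpha genes are assembled later, in cells that already carry a beta chain, and the delta locus lies inside the alpha locus. Each mature T cell therefore transcribes few of its many V segments in joined form, while unjoined segments can also be transcribed.

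All V, D and J segments together held 37866 of 25999043 mouse counts in replicate 1, a share of 0.146% (95% exact binomial interval 0.144 to 0.147), and 34340 of 31902773 in replicate 2, a share of 0.108% (0.107 to 0.109). Counts here are the authors' estimated reads per gene, which need not be whole, and the intervals cover counting error only. A segment was called read at 1 or more counts, and levels are in TPM (transcripts per 1000000, counted per unit of effective length), rescaled over mouse genes. Mouse genes read numbered 10275 and 11764 in replicates 1 and 2. By counting error alone, a count of 0 allows up to 3 counts, or 0.115 and 0.0940 per 1000000 mouse counts. Folds given below as at least a value use this floor. They bound the ratio of counts between the 2 libraries and not of levels between the pups. The labelled tissue was checked on markers: all 12 thymocyte genes were read in both libraries, with summed levels of 5818 and 5861 TPM, as were 4 of 5 thymic epithelial genes. Both natural killer cell markers were at 0 in both libraries, and the B-cell gene Cd79b had 1527 counts, all of them in replicate 2. In RNA from whole tissue, more cells of a type and more RNA per cell cannot be told apart.

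The D and J segments are the shortest members, and they are shown first because their length decided what could be measured. The 4 D segments, printed whole in capitals, each encode a few residues at the core of the receptor's antigen-binding loop. With 1 J segment for each locus (chosen after their counts were seen to be 0, as the functional J segment nearest before a constant gene, those with the motif first), they read as follows, 5′ to 3′ on the plus strand of GRCm38, from GENCODE M21 transcripts. Capitals in the J segments mark TTNGG followed, after any 4 bases, by GG and 1 further base, a pattern for the conserved phenylalanine-glycine-X-glycine stretch that closes the antigen-binding loop, and Trgj4 has no match.
Trbd1 (chr6:41533201-41533212): GGGACAGGGGGC
Trbd2 (chr6:41542163-41542176): GGGACTGGGGGGGC
Trdd1 (chr14:54113468-54113478): ATGGCATATCA
Trdd2 (chr14:54122226-54122241): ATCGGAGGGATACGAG
Trbj2-7 (chr6:41543810-41543856): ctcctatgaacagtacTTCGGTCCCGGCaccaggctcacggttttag
Traj2 (chr14:54217836-54217901): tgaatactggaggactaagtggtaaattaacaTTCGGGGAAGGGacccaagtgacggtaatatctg
Trdj2 (chr14:54136779-54136837): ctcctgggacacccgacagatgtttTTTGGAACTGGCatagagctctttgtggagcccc
Trgj4 (chr13:19342152-19342212): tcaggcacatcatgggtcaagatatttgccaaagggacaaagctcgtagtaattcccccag

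All 80 D and J segments were between 11 and 72 bases long, and all had an effective length of 0 in the deposited tables, where effective length is the length minus 99 bases. Their counts were 0 in both libraries, including Trbd1, Trbd2, Trdd1, Trdd2, Trdj1 and Trdj2. The same held for each of the 2218 mouse genes with an effective length of 0, so a count of 0 for a D or J segment says nothing about its use. The J motif was found in 58 of 76 J segments (76.3%), against 0.724% of the last 60 bases of 134330 other transcripts, and its reverse complement in 0 J segments and 1.22% of those transcripts. Among J segments annotated as functional, 56 of 66 held it. The J segments thus carried their usual sequence signature in the annotation, while their counts of 0 went with their effective length and are no result about reads.

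The V segments, which encode most of the variable domain, were all long enough to be measured, from 260 bases upward, and they gave every segment count in the data. Of the 149 V segments, 25 were read in both libraries, 20 in replicate 1 only, 21 in replicate 2 only and 83 in neither. Read in both were therefore 16.8% of V segments, beside 19.0% of all mouse genes and 11.4% of mouse genes of 250 to 650 bases. Of the 66 V segments read in either library 37.9% were read in both, beside 59.8% of mouse genes and 62.7% of those of like length. The share is given next by locus. In the beta locus 18 of the 21 segments read in either library were read in both (85.7%), in the alpha locus 5 of 38 (13.2%), in the delta locus 1 of 4 and in the gamma locus 1 of 3.

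**Figure D1:**
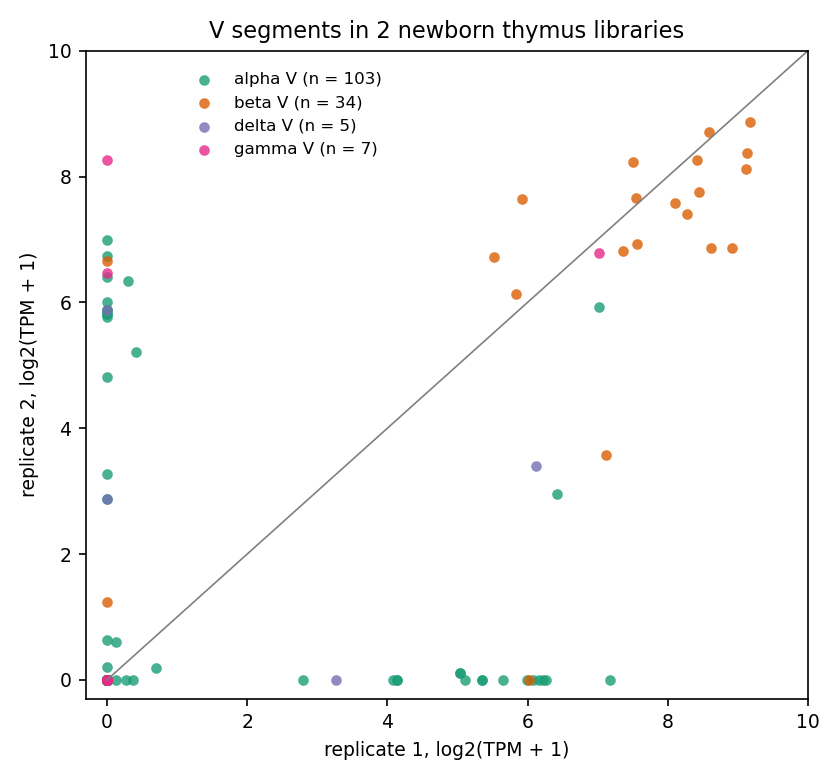
Level of each of 149 V segments in replicate 1 (x axis) and replicate 2 (y axis), as log2(TPM + 1) on both axes, with points coloured by locus and the line of equal level. The beta segments read in both libraries lie at the upper right, with Trbv23 lowest in replicate 2, the 13 beta segments read in neither lie at the origin, and most alpha segments that were read lie along an axis, at 0 or close to 0 in one library.

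Beta V segments, the variable part of the first receptor chain to be assembled in most thymocytes, were the most abundant. They summed to 5298 TPM in replicate 1 and 3824 TPM in replicate 2 (4561 ± 1042, SD, n = 2), which was 81.6% and 72.4% of all V segment TPM. No single segment dominated. The 3 most abundant held 31.8% of the beta V level in each library, and the inverse Simpson index, which gives the number of equally abundant segments that would spread the level as evenly, was 13.7 and 14.1. In each library nearly all of that level, 98.8% and 97.4%, was in segments also read in the other.

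The ends of Trbv16, Trbv31 and Trbv14, the 3 beta segments of highest mean level, show the part that meets the D segment. Each line gives the last 60 bases, 5′ to 3′ in the direction of the gene, with Trbv31 on the minus strand and the others on the plus strand, and capitals mark TGTGC, which holds the codon of the conserved cysteine that opens the antigen-binding loop.
Trbv16 (chr6:41152171-41152230): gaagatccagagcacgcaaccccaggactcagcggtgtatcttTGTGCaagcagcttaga
Trbv31 (chr6:41557693-41557752): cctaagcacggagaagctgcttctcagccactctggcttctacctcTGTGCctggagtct
Trbv14 (chr6:41135557-41135616): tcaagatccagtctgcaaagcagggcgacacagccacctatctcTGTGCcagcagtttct

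Trbv16 measured 575 TPM in replicate 1 and 468 TPM in replicate 2, the highest beta V level in each library. Trbv31 measured 559 and 332 TPM (445 ± 161, SD, n = 2). It is the only beta V segment placed after the constant genes and on the opposite strand, 9.34 kb past Trbc2, so it joins by inversion. Trbv14 measured 554 and 277 TPM (415 ± 196, SD, n = 2). Trbv13-2 measured 383 and 416 TPM (400 ± 23.4, SD, n = 2), and Trbv15 measured 340 and 306 TPM (323 ± 23.9, SD, n = 2). The ranges over the pair of libraries overlapped between each of these 5 segments and the next in the order of means except from Trbv13-2 to Trbv15, so most of this order is within the spread. Trbv1, the first segment of the array and 646 kb from Trbc1, measured 349 and 215 TPM (282 ± 95.1, SD, n = 2).

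Between the libraries, 4 of the 20 beta V segments that averaged at least 100 counts were 4-fold or more apart (20%), beside 50.9% of 9341 mouse genes at that mean. Ratios are on the log2(TPM + 1) scale, without any replicate check. These 4 are named after their values were seen. Trbv5 measured 485 TPM in replicate 1 and 116 TPM in replicate 2. Trbv23 measured 138 and 10.96 TPM. Trbv29 and Trbv30 were each read in a single library: Trbv29 had 0 and 585 counts, at least 159-fold higher per mouse count in replicate 2, and Trbv30 had 309 and 0 counts, at least 126-fold higher in replicate 1. The remaining 16 beta segments lay within 4-fold, and the median log2 ratio of replicate 2 to replicate 1 over all 20 was -0.54, against 0.17 over the mouse genes.

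The silent beta V segments were nearly all pseudogenes. Of 13 segments annotated as pseudogenes, 12 had 0 counts in both libraries and Trbv22 had 6 counts in replicate 2. Of the 21 annotated as functional, 18 were read in both libraries and 1, Trbv21, in neither. Pseudogene segments summed to 0 and 1.36 TPM, of the 5298 and 3824 TPM of the beta V segments.

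**Figure D2:**
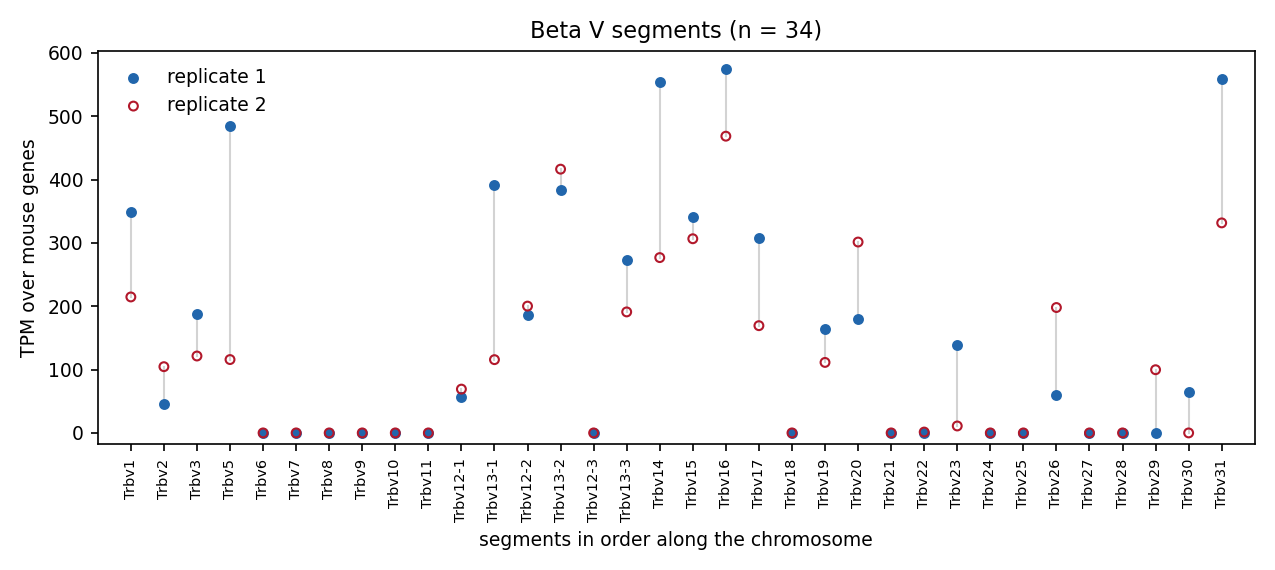
Level in TPM (y axis, linear from 0) of all 34 beta V segments in their order along the chromosome (x axis), with a filled point for replicate 1, an open point for replicate 2 and a line between them. Trbv16 is highest in both libraries, and Trbv6 to Trbv11, all pseudogenes, are at 0.

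The beta levels were set beside position in the array. Across the 21 beta V segments read in either library, Spearman's rho between mean TPM and distance from the constant genes was 0.22, and among the 18 read in both it was -0.10. Without Trbv31, the segment past the constant genes, it was 0.40 over 20 segments and 0.05 over the 17 read in both, so this segment sets the sign of the second value. These points share a library and are given as a description. Levels of those 18 segments in the 2 libraries had Pearson's r of 0.48 on the log2 scale and Spearman's rho of 0.64, again across segments and not samples.

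Alpha V segments, the variable part of the chain that completes the alpha-beta receptor, had similar sums in the 2 libraries, made up mostly of different segments. They summed to 989 TPM in replicate 1 and 886 TPM in replicate 2 (938 ± 73.1, SD, n = 2), or 15.2% and 16.8% of V segment TPM. Of the 103 segments, 18 were read in replicate 1 only, 15 in replicate 2 only and 5 in both. Only 21.7% of the alpha V level of replicate 1 and 20.6% of that of replicate 2 was in segments that the other library also read. Over single segments, the evenness was close to that of beta, with an inverse Simpson index of 12.5 and 11.9. The top 3 segments held 36.1% and 35.7% of the level. The index would be lower with each pair of evenly divided copies, described below, counted as 1 segment.

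Of the 5 alpha V segments read in both libraries, 3 had fewer than 3 counts in one of them: Trav9n-4 had 1.18 and 444 counts, Trav12-1 had 1.64 and 204, and Trav12-2 had 4.19 and 1.06. The remaining pair, Trav21-dv12 and Trav14-3, exceeded 3 counts in both. Trav21-dv12, a double-named segment and the alpha V segment nearest to Trac at 344 kb, measured 128 and 59.8 TPM from 682 and 359 counts (94.1 ± 48.5 TPM, SD, n = 2). Trav14-3 measured 85.0 and 6.79 TPM from 544 and 79.2 counts.

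The other alpha V segments of highest mean level were each at 0 in one library. Trav9-4, with 867 and 0 counts, was at 144 TPM in replicate 1 and at least 355-fold higher there per mouse count. Trav8-2, annotated as a pseudogene, was at 126 TPM in replicate 2 with 0 and 876 counts, at least 238-fold higher. Trav3-4 was at 106 TPM in replicate 2 with 0 and 879 counts, at least 239-fold higher. Each library's leading alpha V segment, Trav9-4 in replicate 1 and Trav8-2 in replicate 2, was thus at 0 in the other. Trav8-2 was the only one of 5 alpha V pseudogenes read. Trav6d-4, the read alpha V segment farthest from Trac at 1467 kb, had 0 and 405 counts.

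**Figure D3:**
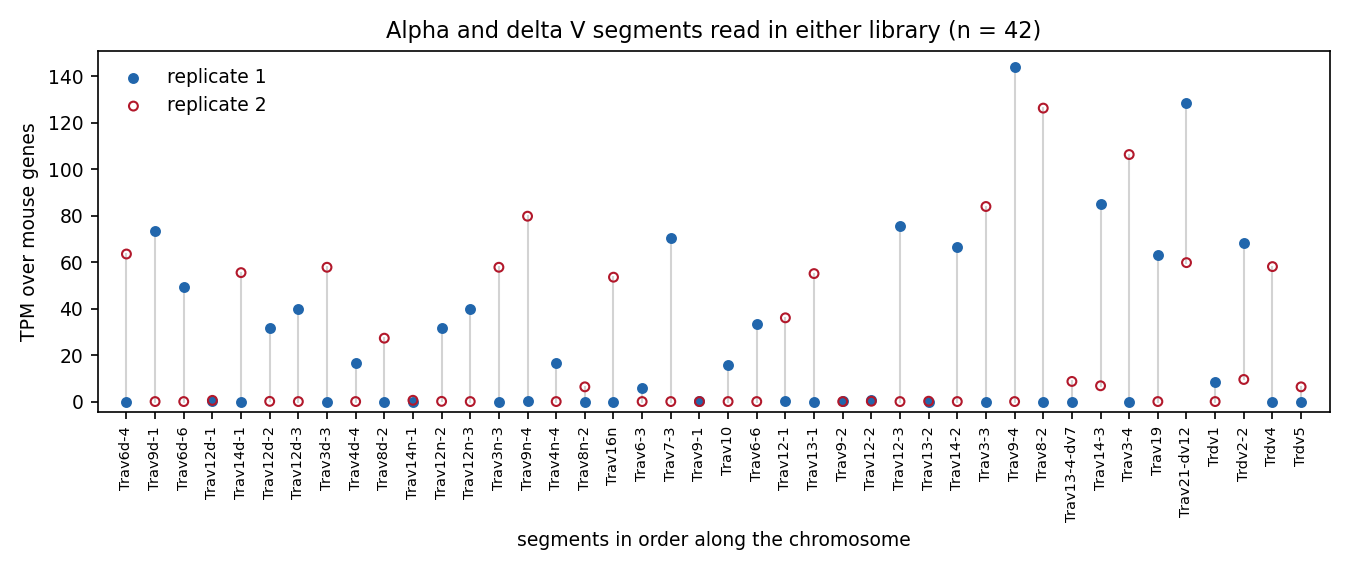
Level in TPM (y axis, linear from 0) of the 42 alpha and delta V segments read in either library, in their order along the chromosome (x axis), with filled points for replicate 1 and open points for replicate 2. Trav21-dv12 has a level well above 0 in both libraries, while most other segments have 1 point at or near 0.

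Among the 20 alpha V segments that averaged at least 100 counts, 19 were 4-fold or more apart (95%), beside 50.9% of mouse genes. Of these 11 were higher in replicate 2, beside 29.4% of mouse genes, and 8 in replicate 1, beside 21.5%, so the differences ran in both directions. Trav21-dv12 was the exception. In replicate 1, 11 of the 20 did not exceed 3 counts, and in replicate 2 a further 7 did not. Among the 9341 mouse genes these numbers were 1991 and 1286. Such a segment passes a mean of 100 counts only through the other library, so 4-fold was then nearly assured. The 95% thus mostly restates detection in a single library. Trav3d-3 and Trav3n-3, which are near-identical copies, were counted separately. For all V segments together, 27 of 45 were 4-fold or more apart (60%), and for the delta and gamma V segments 2 of 2 and 2 of 3.

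Alpha V segments were low, so their detection was set beside genes of the same level. At a mean of 25 to 50 TPM, 1 of 14 alpha V segments was above 3 counts in both libraries (7.14%), beside 63.0% of 2078 mouse genes and 53.6% of 125 mouse genes of like length. At 50 to 100 TPM it was 1 of 4 alpha V segments, 3 of 3 beta V segments and 86.5% of mouse genes. At 10 to 25 TPM it was 0 of 8 alpha V segments and 43.6% of mouse genes. All 15 beta V segments at 100 TPM or more were above 3 counts in both libraries, beside 96.1% of mouse genes at 100 to 200 TPM and 99.9% above that. The 2 beta V segments between 25 and 50 TPM, Trbv29 and Trbv30, were each at 0 in one library.

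**Figure D4:**
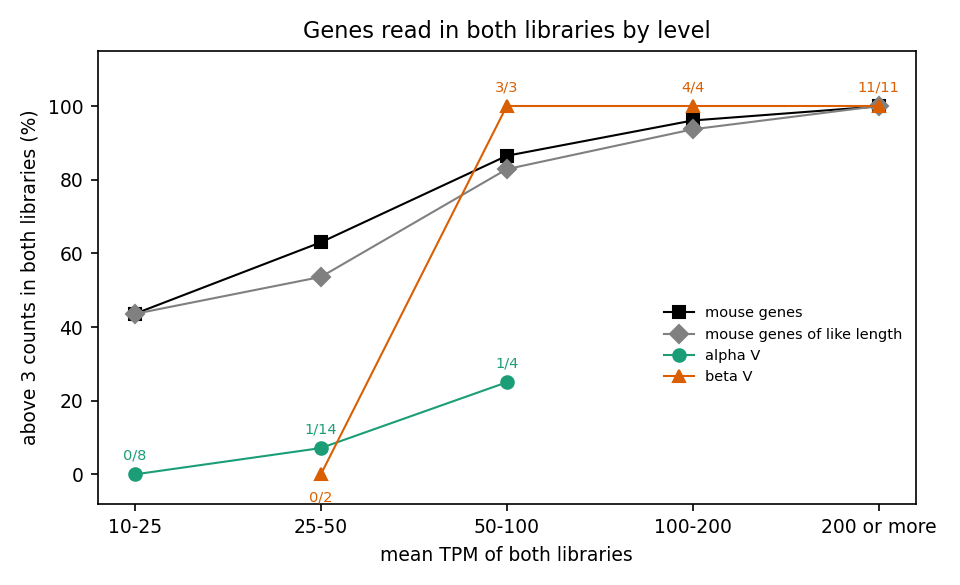
Share of genes above 3 counts in both libraries (y axis, percent) by mean TPM of both libraries (x axis, 5 classes), for all mouse genes, mouse genes of 250 to 650 bases, alpha V and beta V segments, with the number of segments beside each of their points. Alpha V segments lie below mouse genes of the same level in each of the 3 classes that hold them, and beta V segments reach 100% from 50 TPM.

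Near-identical copies complicate the alpha values. In C57BL/6 mice the alpha V array holds repeated blocks whose copies carry the letters d and n in their names. Over the last 250 bases, the nearest other alpha V segment was a median of 99.2% identical, 84 of 103 had a neighbour at 95% or more and 32 had an exact copy. In the beta locus the median was 65.6% and the highest 91.2%, between Trbv13-2 and Trbv13-3. Of the 19 alpha V segments whose nearest neighbour was below 95%, 7 were read and 2 of them in both libraries, and of the 84 others 31 were read and 3 in both. The first lines below show such copies, between which a read of this stretch cannot be placed: Trav12d-2 and Trav12n-2 lie 310 kb apart and end in the same 60 bases (plus strand, TGTGC in capitals), while Trav21-dv12, shown for contrast, has no neighbour above 64.8% and holds no TGTGC.
Trav12d-2 (chr14:52916367-52916426): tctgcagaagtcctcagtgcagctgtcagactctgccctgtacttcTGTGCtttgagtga
Trav12n-2 (chr14:53227341-53227400): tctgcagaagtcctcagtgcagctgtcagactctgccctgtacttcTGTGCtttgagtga
Trav21-dv12 (chr14:53876693-53876752): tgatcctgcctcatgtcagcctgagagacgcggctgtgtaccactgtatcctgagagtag

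Among segments with counts, 4 pairs had equal counts within 0.05 in both libraries, all d and n copies with identical last 250 bases, and they are named for that after their values were seen. Trav12d-2 and Trav12n-2 had 157.5 counts each in replicate 1, with a posterior SD of 73.9 counts, and 0.5 each in replicate 2. Trav12d-3 and Trav12n-3 had 198 counts each in replicate 1 and 0 in replicate 2. Trav3d-3 and Trav3n-3 had 0 counts in replicate 1 and 236 each in replicate 2. Trav4d-4 and Trav4n-4 had 78.5 counts each in replicate 1 and 0 in replicate 2. The deposited estimate divided the reads of each pair evenly, so only the sum of each pair can be read, and each sum was still above 100 counts in one library and at most 1 in the other.

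Pooling all copies by family number, an alternative added after the data were seen, gave 21 alpha V families, of which 5 were read in both libraries, 8 in one and 8 in neither. The families read in both were Trav6, Trav9, Trav12, Trav14 and Trav21. Some of the 8 families read in one library are named here after their values were seen. Trav3 had 0 counts in replicate 1 and 1970 in replicate 2, from 4 of its 5 members, and Trav8 had 0 and 1058. Trav7 had 435 and 0 counts, and Trav19, a family of 1 segment, had 445 and 0. Read in both were therefore 38.5% of the families read in either, beside 13.2% of the single segments and 59.8% of mouse genes. A family sums up to 15 segments and so reaches 1 count more easily. The shares of families and of single segments are therefore not like measures.

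Along the alpha array, most of the level came from the part nearest to the J and constant genes. Of the alpha V TPM, the 35 segments nearest to Trac held 62.0% in replicate 1 and 54.5% in replicate 2, the next 34 held 16.7% and 25.4%, and the farthest 34 held 21.3% and 20.02%. Read in either library were 18, 11 and 9 of these. The nearest 35 are all segments without a d or n letter, as are only 5 of the next 34 and 6 of the farthest 34. Position and letter can therefore hardly be told apart. Segments without a letter summed to 690 and 483 TPM, of which the nearest 35 held 613 and 483 TPM. Among the 38 that were read, Spearman's rho between mean TPM and distance was -0.28, and -0.14 and -0.11 in the single libraries. By letter, 20 of 46 segments without a letter were read in either library, 10 of 32 d copies and 8 of 25 n copies. Over all mouse genes, 13791 of 43346 were read in either library, and 1406 of 7757 of those of like length.

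Delta V segments, which serve the gamma-delta receptor, summed to 77.1 and 73.9 TPM (75.5 ± 2.21, SD, n = 2), 1.19% and 1.40% of V segment TPM. The segments behind these sums differed in level between the libraries. Trdv2-2 measured 68.4 and 9.51 TPM from 344 and 54 counts, and it is 97.6% identical to Trdv2-1 over the last 250 bases, which had 0 counts in both libraries. Trdv4 had 0 and 330 counts, so it was at 58.1 TPM in replicate 2 and at least 89.6-fold higher there per mouse count. Trdv1 had 51 and 0 counts (8.62 TPM in replicate 1), and Trdv5 had 0 and 36 counts (6.33 TPM in replicate 2). Trdv5 lies on the opposite strand and overlaps the end of the delta constant gene Trdc in the annotation, so its counts are uncertain, and Trdc itself was not analysed here. Of the 9 alpha V segments with a double delta name, Trav21-dv12 was read in both libraries and Trav13-4-dv7 had 57 counts in replicate 2.

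Gamma V segments had sums of 128 TPM in replicate 1 and 501 TPM in replicate 2 (315 ± 264, SD, n = 2), 1.97% and 9.48% of V segment TPM. In the mouse the gamma locus is a set of clusters, each with its own V, J and C genes, and V segments join mostly within their cluster. Tcrg-V4, in the cluster of Tcrg-C1, measured 128 and 109 TPM from 825 and 791 counts (118 ± 13.7 TPM, SD, n = 2). Trgv2, 29.0 kb upstream of Tcrg-C2 and on its minus strand, had 0 counts in replicate 1 and 1768 in replicate 2 (305 TPM), at least 480-fold higher per mouse count, and it was the only segment with 1000 or more counts in one library and 3 or fewer in the other. Tcrg-V1, 4.10 kb upstream of Tcrg-C4, had 0 and 499 counts (87.1 TPM in replicate 2), at least 136-fold higher. Tcrg-V3, Tcrg-V5, Tcrg-V6 and Tcrg-V7 had 0 counts in both libraries.

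The ends of the 3 gamma V segments that were read are shown because Trgv2 and Tcrg-V1 are close relatives. In replicate 2 the posterior SD was 0 for the 1768 counts of Trgv2 and 0.17 for the 499 counts of Tcrg-V1. The deposited estimate thus placed their reads with almost no uncertainty. Each line gives the last 60 bases in the direction of the gene (Trgv2 minus strand, the others plus), with TGTGC in capitals. Over the last 250 bases the nearest gamma V segment to both Trgv2 and Tcrg-V1 was Tcrg-V3, at 94.0% and 94.8% identity, which had 0 counts.
Trgv2 (chr13:19336573-19336632): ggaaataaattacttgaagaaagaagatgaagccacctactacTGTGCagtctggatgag
Tcrg-V1 (chr13:19340395-19340454): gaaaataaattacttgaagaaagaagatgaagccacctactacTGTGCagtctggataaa
Tcrg-V4 (chr13:19185447-19185506): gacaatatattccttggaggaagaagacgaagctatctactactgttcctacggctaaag

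In each gamma cluster with a V segment read, the constant gene and the V segment had their higher value in the same library. Tcrg-C1 measured 147 and 114 TPM, beside 128 and 109 for Tcrg-V4. Tcrg-C2 measured 79.2 and 318 TPM from 654 and 2970 counts, beside 0 and 305 for Trgv2. Tcrg-C4 had 0 and 650 counts (57.3 TPM in replicate 2), beside 0 and 499 counts of Tcrg-V1. Tcrg-C3 and its V segment, Tcrg-V3, were at 0 counts in both libraries. Gamma constant genes resemble each other, and reads shared between them were divided by the deposited estimate.

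In the alpha and beta loci the constant genes differed less between the libraries than the V sums did. Trac measured 853 and 844 TPM, so the summed alpha V level was 1.16 and 1.05 of it. Trbc1 and Trbc2 together measured 9650 and 9602 TPM, so the summed beta V level was 0.549 and 0.398 of it. In the gamma locus the ratio of summed V to summed constant level was 0.566 and 1.02. The beta V sum was thus lower relative to its constant genes than the alpha V sum in each library.

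**Figure D5:**
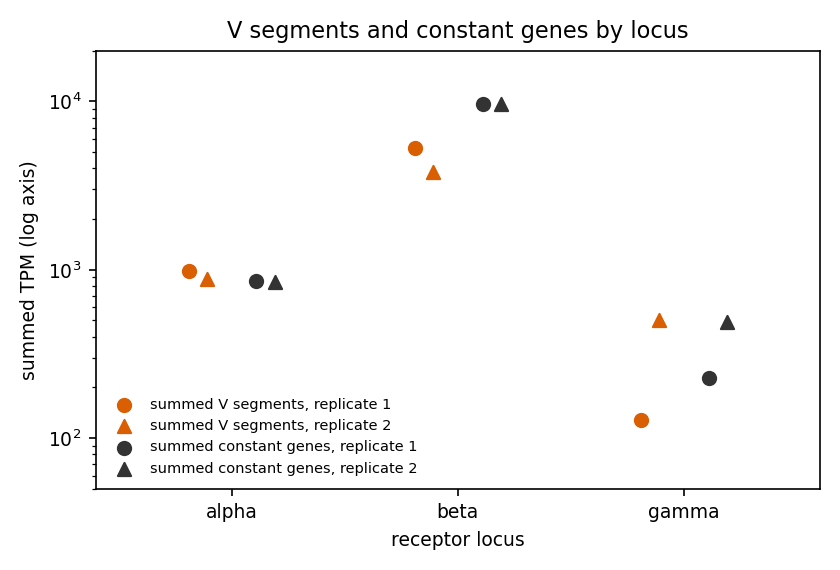
Summed TPM (y axis, log scale) of V segments and of constant genes in the alpha, beta and gamma loci (x axis), with circles for replicate 1 and triangles for replicate 2. V and constant sums nearly coincide in alpha, the V sum lies below the constant sum in beta, and both are higher in replicate 2 in gamma.

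Genes that assemble and first use the receptor were read beside the segments. Rag1 and Rag2, the recombinase that cuts at V, D and J segments, measured 118 and 221 TPM and 70.5 and 44.1 TPM. Dntt, which adds bases at the joints, measured 59.1 and 46.3 TPM, and Ptcra, which pairs with the new beta chain before alpha is made, 71.1 and 57.0 TPM. Of the 18 constant, recombination and end-joining genes in the tables, 12 were read in both libraries and 1 was at 0 in both. Of all mouse genes 19.0% were read in both, and 59.8% of those read in either. Of the end-joining genes, Xrcc5, Xrcc6 and Lig4 were read in both, with 1835 and 4899, 8789 and 24345, and 1390 and 9903 counts. The end-joining genes Xrcc4, Nhej1, Dclre1c and Prkdc were at 0 counts in replicate 1 and at 823, 1046, 40 and 72 counts in replicate 2.

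The V motif was a common feature that the choice of members did not use. TGTGC lay in the last 30 bases of 116 of 149 V segments (77.9%), against 3.01% of the other transcripts, and its reverse complement in 0 V segments and 2.27% of those transcripts. It was in 53 of the 66 V segments that were read (80.3%) and in 105 of 131 annotated as functional. Of the read segments shown above, Trav21-dv12 and Tcrg-V4, hold no TGTGC.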

How the data were processed

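Thymus RNA of 2 newborn pups was measured in 2 libraries of 1 group. Groups and replicates follow the labels. The members and gene lists were chosen with earlier results of these data known.

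The deposited tables give expected counts (the reads estimated for each gene), TPM and, per transcript, a percent of the gene's TPM. The reads were placed on mm10 per the labels, and annotation M4 is named in the deposited notes. For the aligner and the counting program, a name is not given in the sources used, though per the file headers the columns carry names used by RSEM. In the deposited tables the effective length is the length minus 99 bases and 0 at 99 bases or fewer, and no gene with an effective length of 0 has a count. Reads shared by near-identical segments were divided by the authors' estimate.

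Names, types and positions came from GENCODE M21 on GRCm38, matched by ID without version, which found 42462 of 43346 mouse genes. TPM was rescaled to 1000000 over mouse genes. Log2 ratios carry a pseudocount of 1 TPM and a mean of 100 or more counts. A fold stated as "at least" sets counts per mouse count against a floor of 3 counts in the other library. The floor covers counting error only. Values are mean ± SD of 2, and no test was made. The sequences were read from the M21 transcripts, which hold 78 of 80 D and J segments and 90 of 149 V segments at the deposited length. The ratio step was tested on simulated Poisson counts. These hold counting error only, so the test does not cover the wider spread between these 2 libraries. Tools were Python 3.11.15 and, for the alternative scalings on rounded expected counts, edgeR 4.0.16 and DESeq2 1.42.0 under R 4.3.3. Alternatives covered the count that calls a segment read, posterior means, scaling, pseudocount, fold, minimum counts, pseudogenes, double names, thinning and each library alone.

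Named segments were the 5 V segments of highest mean TPM per locus, all D, delta and gamma segments, the read segments nearest to and farthest from the constant gene, and segments at 1000 or more counts against 3 or fewer. All other segments and families were named after their values were seen, whether or not this is said beside them.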

Additional observations from a re-analysis of the deposited data

How the results depend on the processing

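No paired analysis was possible because there is 1 group. Of 170 alternatives over 29 results, 140 left the value within the spread between the libraries, or a count close to its first value. Part of that number was fixed in advance. With 2 libraries, a sum or share in each library alone always lies within the SD of the mean. An effective length of 100 or more left out no V segment, as the shortest effective length was 161. The tally therefore overstates how stable the results are. Alpha V segments read in both libraries fell from 5 to 2 at 10 or more counts and to 1 at 100 or more. As counts per 1000000 mouse counts in place of TPM, V segments summed to 1266, alpha V to 199.6 and beta V to 989, a change of unit. Counting double names as delta gave alpha 14.4% of V TPM. Past 4-fold, beside 27 of 45 V segments, were 41 of 59 V segments and 31 of 32 alpha V segments at a mean of 10 or more counts (47.4% of mouse genes). At 1000 or more it was 1 of 14, all beta V (35.7% of mouse genes), and past 2-fold were 7 of 20 beta V segments (67.7% of mouse genes). The alpha V median log2 ratio of 5.28 turned to -3.13 at a mean of 10 or more counts, where more segments entered, so the median holds no direction. Among segments read in both, the Spearman correlation of level and distance was -0.60 for alpha V (5 segments) and -0.10 for beta V. Leaving out each library, it ranged from -0.14 to -0.11 for alpha V and from 0.10 to 0.23 for beta V. The correlation was not run over gamma V with 3 read segments, nor over J segments, all at 0. With a single pair of libraries from 13 pg of RNA, a segment at 0 was not detected in that library and is not shown to be absent from the thymus.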

Other observations

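Several V segments have more than 1 transcript model in the tables, and the deposited estimate favoured different models in the 2 libraries for Trav14-3 and Trbv23 and the same model for Trbv31. For Trbv31 the 416-base model held 74.4% and 82.8% of the segment's TPM. For Trav14-3 the 383-base model held 87.7% in replicate 1 and the 621-base model 92.8% in replicate 2. For Trav8-2, the annotated pseudogene read in replicate 2, a 336-base model had 670 counts and a 2371-base model had 206. Trbv23 was assigned to a 347-base model in replicate 1 (701 counts) and to a 344-base model in replicate 2 (62 counts). These segments were chosen after their values were seen.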
